A study of Mus musculus with 2 samples.

Results

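The cells described here are osteoclast-like myeloid cells of a mouse tumor, barcodes that carried RNA for the bone-resorbing protease Ctsk together with Mmp9. They were chosen by their own counts, from 2 single-cell libraries: a barcode needed at least 1000 unique molecular identifiers (UMIs), under 10% mitochondrial RNA, under 475 CPM (a gene's UMIs scaled to the same total in every barcode) of the cancer-cell genes Rhox5, Krt8, Krt18 and Hmga2 together, at least 500 CPM of the myeloid genes Tyrobp, Fcer1g and Ctss, at least 1 UMI each of Mmp9 and Ctsk, at least 1000 CPM of Mmp9, Ctsk, Acp5 and Atp6v0d2 together, and under 5000 CPM of S100a8 and S100a9. This left 104 barcodes of 40638, or of 7341 that passed the myeloid steps. The tumors were subcutaneous grafts of Lewis lung carcinoma (LLC), a mouse lung cancer line, and the study asked what loss of soluble guanylate cyclase, the nitric oxide receptor, from pericytes does to the tumor. The CT library came from Gucy1b1 flox/flox mice (sGC-Ctr in the study) and held 48 of the barcodes. The KO library came from mice labelled Cspg4-CreERT2::Gucyc1b1 flox/flox (sGC-∆PC), in which tamoxifen removes the beta1 subunit of the enzyme from cells that use the Cspg4 (NG2) promoter, and held 56. The mice were C57BL/6 littermates, all were given 5 tamoxifen doses at 4 weeks of age, LLC cells followed at 8 weeks, and tumors were taken 2 weeks later. Each library pooled 3 tumors, so a condition had 1 sample and no spread between animals could be measured. Differences between the conditions are therefore given without a test, and every 95% interval (exact Poisson for a level, exact Clopper-Pearson for a share, exact conditional for a ratio) covers counting error only.

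Osteoclasts are large cells that form by fusion of myeloid precursors under the cytokines M-CSF (Csf1) and RANKL (Tnfsf11), which act through the receptors Csf1r and RANK (Tnfrsf11a). RANK signaling, with costimulation by the immunoglobulin-like receptors Oscar and Trem2 and their adaptors Tyrobp and Fcer1g, switches on the master transcription factor Nfatc1. The mature cell seals itself onto bone, pumps protons through a vacuolar ATPase, and digests collagen with cathepsin K. It resides in bone, and these tumors grew under the skin.

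The libraries differed in depth before any selection. CT held 487859656 UMIs over 15007 barcodes (median 23337 for a barcode), and KO held 436352742 UMIs over 25631 barcodes (median 8019). After the quality steps 12281 and 21082 barcodes remained, 3945 and 4823 were low in cancer-cell RNA, and 3307 and 4034 passed as myeloid. The libraries shared 131 barcode sequences. Among the osteoclast-like cells, 1 carried a sequence that the other library also held, and 0 were shared as members.

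The name under which these cells were proposed calls them macrophages, and the macrophage markers went against it. The study itself placed an Mmp9-positive group among its tumor-associated macrophages, and whether that group holds these barcodes was not tested. Of 12 macrophage markers measured, 9 were at least 2-fold lower than in the other myeloid barcodes of both libraries and 0 were higher, where 14% of all genes were lower and 5.15% higher. Their summed level was 3049 CPM in CT and 3308 CPM in KO members, against 27289 and 23857 CPM in the others. In members of 10000 UMIs or more it was 2847 and 1901 CPM, and in members below that depth 7957 and 8667 CPM. The contrast was thus weaker in the shallower cells, which were 5 of the 48 CT and 37 of the 56 KO members. Lyz2 held the most UMIs, Adgre1 (F4/80) had 7 UMIs in CT and 5 in KO, and Mertk was at 0 in CT. Csf1r was 782 and 560 CPM against 398 and 331 CPM, and the lysosomal glycoprotein Cd68 was 832 and 920 against 653 and 545 CPM. Of the 5 osteoclast markers fixed, the rule itself used Mmp9, Ctsk, Acp5 and Atp6v0d2, so their presence supports no name, and Slc9b2 was found in 47 of 48 CT and 43 of 56 KO members. The cells are called osteoclast-like Ctsk Mmp9 cells below for the genes that chose them, with no claim to a lineage.

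**Figure D1:**
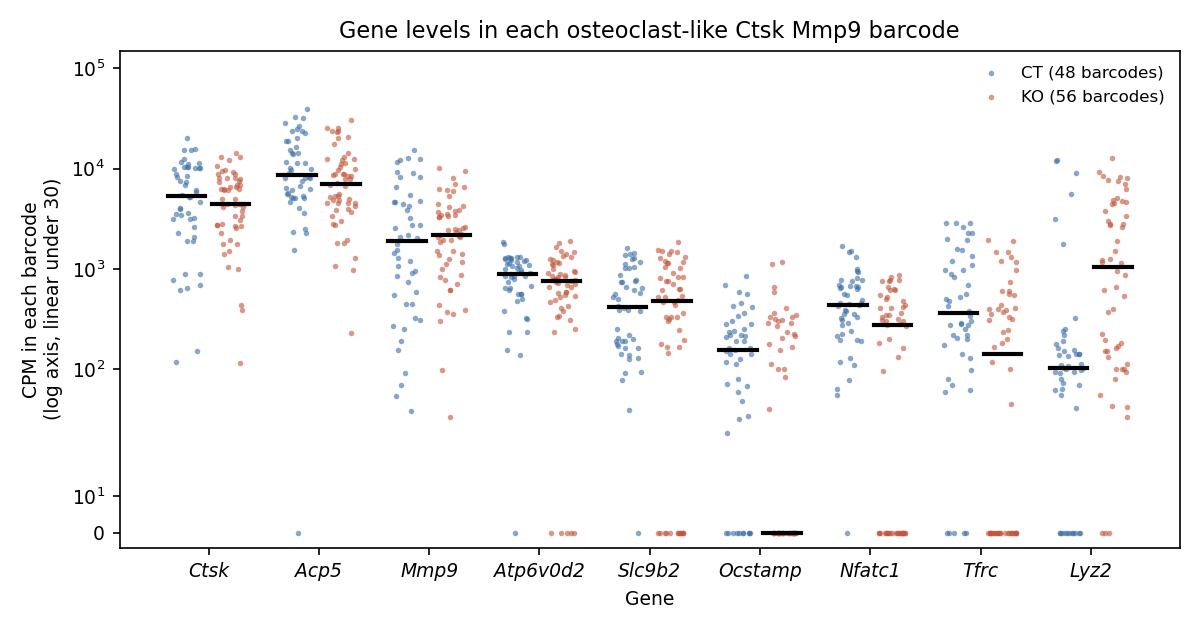
The vertical axis is the level in CPM (log axis, linear under 30) of 9 genes, with 1 point for each of 48 CT (blue) and 56 KO (red) osteoclast-like barcodes, bars at the median and barcodes without a UMI at 0. The points of Ctsk, Acp5, Mmp9, Atp6v0d2 and Slc9b2 cover like ranges in both libraries, and Lyz2 is higher in many KO than in most CT barcodes.

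Promoters are shown for Ctsk, which the rule used, and for Oscar and Slc9b2, which it did not use and which were among the genes farthest above the other myeloid barcodes. Each runs from 250 bases before to 50 bases after the RefSeq start, on build GRCm38.p6, 5′ to 3′ on the gene's strand. Capitals mark matches to TGGAAA (NFAT core), GAGGAA (PU.1 core) or TGANTCA (AP-1), on either strand.
Ctsk, chr3:95498960-95499259, plus strand: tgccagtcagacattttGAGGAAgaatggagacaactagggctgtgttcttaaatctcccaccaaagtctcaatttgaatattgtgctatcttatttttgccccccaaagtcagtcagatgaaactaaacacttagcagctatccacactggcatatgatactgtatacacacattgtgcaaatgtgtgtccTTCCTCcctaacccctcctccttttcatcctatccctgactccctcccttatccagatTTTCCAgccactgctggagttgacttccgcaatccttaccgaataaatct
Oscar, chr7:3616108-3616407, minus strand: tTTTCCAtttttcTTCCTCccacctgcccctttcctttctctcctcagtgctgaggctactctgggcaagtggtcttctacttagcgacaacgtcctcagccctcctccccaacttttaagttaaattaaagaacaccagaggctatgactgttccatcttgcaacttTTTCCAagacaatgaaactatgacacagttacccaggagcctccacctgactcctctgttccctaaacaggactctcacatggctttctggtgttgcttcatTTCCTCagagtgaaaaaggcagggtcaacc
Slc9b2, chr3:135307450-135307749, plus strand: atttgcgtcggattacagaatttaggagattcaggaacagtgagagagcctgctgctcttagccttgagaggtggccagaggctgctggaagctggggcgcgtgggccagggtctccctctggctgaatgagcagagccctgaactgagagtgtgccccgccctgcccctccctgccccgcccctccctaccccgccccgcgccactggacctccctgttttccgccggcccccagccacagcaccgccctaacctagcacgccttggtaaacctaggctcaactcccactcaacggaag
The Ctsk window held a PU.1 match at position 18, and matches on the opposite strand for PU.1 at 193 and for NFAT at 251, counted from 1 at the window's 5′ end. The Oscar window held NFAT matches at positions 2 and 169 and PU.1 matches at 14 and 271, all on the opposite strand. The Slc9b2 window held none. Of 32851 promoters of this length, 21.4% held the NFAT letters, 28.3% the PU.1 letters and 7.81% the AP-1 letters, so matches like these are common. Of 16 genes looked up (the rule and marker genes and those highest in members), 9 had an entry, with 12 promoters, of which 5, 4 and 2 held the respective letters.

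In the GENCODE annotation of GRCm38, Ctsk lies on chromosome 3 (95499256 to 95509362, plus strand), Slc9b2 farther along it (135307700 to 135345387, plus strand) and Mmp9 on chromosome 2 (164940780 to 164955850, plus strand). Ocstamp lies near Mmp9 on chromosome 2 (165393760 to 165400405, minus strand). Acp5 is on chromosome 9 (22126727 to 22135711, minus strand), Atp6v0d2 on chromosome 4 (19876841 to 19922605, minus strand), Oscar on chromosome 7 (3609813 to 3616157, minus strand) and Dcstamp on chromosome 15 (39745930 to 39760938, plus strand). Reads came from the 3′ ends of transcripts and carry no length correction, so levels are compared within a gene. Where a gene is said to hold the most UMIs of a list, that is a count and not a level per length.

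The 4 genes that chose the cells are described without a test. Ctsk (cathepsin K) was at 6210.2 CPM [6047 to 6377] in CT members and 6434 CPM [6230 to 6643] in KO members, against 27.8 and 62.9 CPM in the other myeloid barcodes. Per barcode its median was 5372 CPM in CT (118 to 20396) and 4416 CPM in KO (114 to 14245). Acp5, the tartrate-resistant acid phosphatase, was at 11089 and 8736 CPM against 70.8 and 116 CPM, with a median per barcode of 8701 and 7051 CPM. Mmp9 (gelatinase B) was at 3385 and 3513 CPM against 10.9 and 11.7 CPM, with a median per barcode of 1916 and 2187 CPM. Atp6v0d2, the d2 subunit of the proton pump, was at 847 and 906 CPM against 13.2 and 17.2 CPM. The rule genes varied together to differing degrees among the cells of a library. Spearman's rho for Ctsk and Acp5 was 0.71 over 48 CT and 0.74 over 56 KO cells, and for Ctsk and Mmp9 it was 0.53 and 0.55. Weaker pairs were Ctsk and Atp6v0d2 (0.48 and 0.31) and Acp5 and Mmp9 (0.34 and 0.42). These values are given as a description, since the points share a library, its depths and the rule.

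The summed level of the 4 genes had a median of 18718 CPM in CT members (4229 to 62522) and 15968 CPM in KO members (1710 to 51103), against a limit of 1000 CPM and a median of 0 in the other myeloid barcodes. Just inside the limit were 4229, 4235 and 4717 CPM in CT and 1710, 3030.3 and 4072 CPM in KO. Just outside, among myeloid barcodes in which Mmp9 and Ctsk were both found, were 556, 630.3 and 861 CPM in CT and 584, 640.3 and 885 CPM in KO. A further 44 CT and 83 KO myeloid barcodes reached the limit with Mmp9 or Ctsk missing, at 1021 CPM or more in CT (median 2020) and 1000 CPM or more in KO (median 3485). The innermost KO barcode, at 1710 CPM, held 12 Mmp9, 1 Ctsk and 2 Acp5 UMIs, no Atp6v0d2 or Slc9b2, and 20294 CPM of Lyz2 and C1q RNA.

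Slc9b2 (NHA2), a sodium-proton exchanger abundant in osteoclasts, was the marker that the rule did not use. It was at 508 CPM in CT and 576 CPM in KO members, against 5.35 and 8.91 CPM in the other myeloid barcodes, a log2 difference of 6.57 and 6.01. Per barcode the median was 418 CPM in CT (0 to 1623) and 479 CPM in KO (0 to 1858). To set depth aside, each barcode was thinned to 1000 UMIs. Slc9b2 was then found in 37.5% of CT and 46.4% of KO members, in 0.307% and 0.452% of the other myeloid barcodes, and in 0 of 45 and 0 of 47 barcodes gated as T cells by Cd3d, Cd3e and Cd3g, which should lack it (a count of 0 allows up to 6.67% and 6.38%). Median depth before thinning was 15776 and 3979 UMIs in members and 3348 and 4889 UMIs in T-cell barcodes. Without thinning Slc9b2 was found in 47 of 48 CT and 43 of 56 KO members. Ocstamp, a membrane protein of osteoclast fusion that the rule also left out, was found after thinning in 18.8% and 10.7% of members against 0.675% and 0.654% of the others. Lyz2 went the other way, found after thinning in 16.7% and 57.1% of members and in 90.6% and 91.3% of the others. The share with Slc9b2 was thus of the same order in both libraries and far above that in T-cell barcodes.

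The KO members fell into a deep and a shallow set. CT members had a median of 15776 UMIs (3070.0 to 63374) and 3532 genes. KO members had a median of 3979 UMIs (1326 to 39396) and 1530.5 genes, with none between 8771 and 15141 UMIs, 37 below that gap and 19 above. The 19 deep KO cells had a median of 23137 UMIs and the 37 shallow ones 2883. RNA of ordinary macrophages went with this split. Lyz2 and the 3 C1q genes together were at 1000 CPM or more in 30 of 37 shallow KO cells (81.1%) but in 1 of 19 deep ones, in 6 of 48 CT members (12.5%), and in 91.0% and 92.4% of the other myeloid barcodes. The median of this sum was 177 CPM in CT and 1417 CPM in KO members, against 20078 and 15681 CPM in the others. Lyz2 (lysozyme 2) alone was at 121 CPM in deep and 4169 CPM in shallow KO members. In CT it was at 780 and 2290 CPM, but 5 of the 43 deep CT cells held 89.7% of their Lyz2 UMIs and the other 38 were at 91.6 CPM together, and of the 5 shallow CT cells 1 was at 9111 CPM and the others were at 0 to 326 CPM. Over the KO members Spearman's rho of depth with the Lyz2 and C1q level was −0.56 (n = 56), and over the CT members −0.13 (n = 48). The 5 osteoclast markers, 4 of them rule genes, were all found in 43 of 43 deep CT and 19 of 19 deep KO cells, and in 4 of 5 and 22 of 37 shallow ones. Mitochondrial RNA was 6.15% and 4.86% (median) in members, 7.80% in deep KO members, and 3.80% and 4.33% in the other myeloid barcodes. The part of free RNA or of shared droplets in the shallow KO set was not tested.

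**Figure D2:**
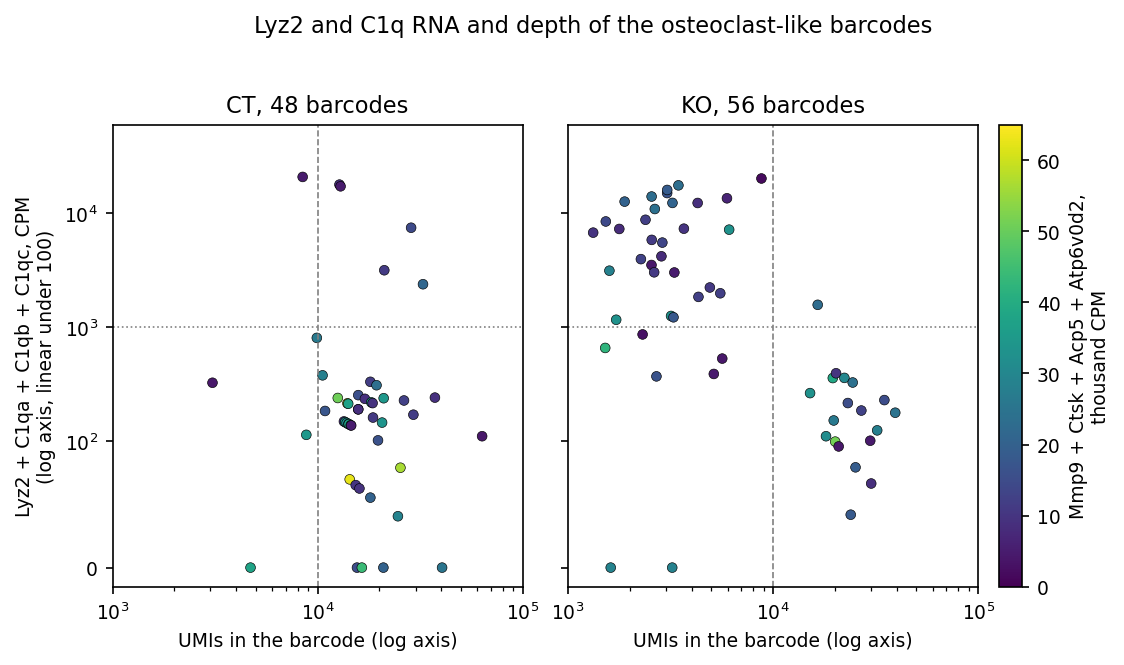
The horizontal axis is a barcode's total UMIs (log axis) and the vertical axis its Lyz2 and C1q RNA in CPM (log axis, linear under 100), with 1 point for each osteoclast-like barcode, CT on the left and KO on the right, colored by the summed level of the 4 rule genes, and lines at 10000 UMIs and 1000 CPM. The KO points form 2 sets on either side of the gap from 8771 to 15141 UMIs, and the shallow set lies higher, with 30 of 37 at 1000 CPM or more.

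The share of osteoclast-like cells among myeloid barcodes was 1.45% in CT (48 of 3307, 1.07 to 1.92) and 1.39% in KO (56 of 4034, 1.05 to 1.80), a log2 ratio of −0.06 (−0.65 to 0.52). The 2 depth classes differed from this pooled value. Among barcodes of 10000 UMIs or more the share was 2.79% in CT (43 of 1540, 2.03 to 3.74) and 1.54% in KO (19 of 1233, 0.930 to 2.40), a log2 ratio of −0.86 (−1.72 to −0.05). Among shallower barcodes it was 0.283% in CT (5 of 1767, 0.0919 to 0.659) and 1.32% in KO (37 of 2801, 0.932 to 1.82), a log2 ratio of 2.22 (0.87 to 3.93). Between 20000 and 50000 UMIs the shares were 4.92% in CT (12 of 244) and 5.34% in KO (14 of 262), and their intervals overlapped (2.57 to 8.43 and 2.95 to 8.80). Between 10000 and 20000 UMIs they were 2.33% in CT (30 of 1288, 1.58 to 3.31) and 0.517% in KO (5 of 967, 0.168 to 1.20). Between 2000 and 5000 UMIs they were 0.529% in CT (2 of 378) and 2.29% in KO (23 of 1005). The condition with the higher share therefore depended on the depth at which barcodes were compared. Of all quality-filtered barcodes the cells were 0.391% in CT and 0.266% in KO, a log2 ratio of −0.56 (−1.14 to 0.03). With 1 library for each genotype, the genotype, the library and its depth cannot be told apart here.

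**Figure D3:**
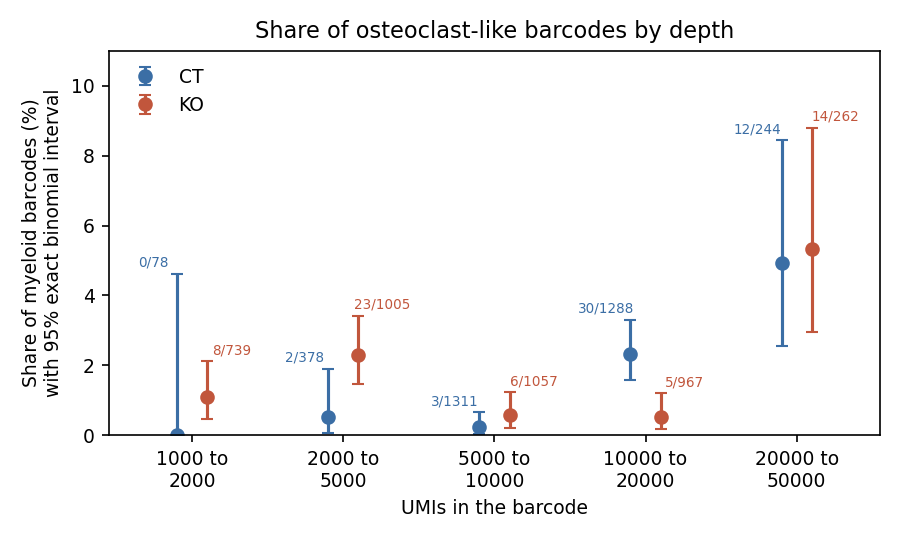
The horizontal axis is the UMI range and the vertical axis the share of myeloid barcodes that were osteoclast-like, in percent, with points for CT and KO and bars for the exact 95% binomial interval of counting error; the 8 CT and 4 KO barcodes of 50000 UMIs or more are not drawn. The shares meet between 20000 and 50000 UMIs at 4.92% and 5.34%, CT is higher between 10000 and 20000 UMIs, and KO is higher between 2000 and 5000 UMIs.

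Set against the 3259 CT and 3978 KO other myeloid barcodes, members were described for every gene with at least 50 UMIs in members and others together in each library. Of 11317 such genes, 5.15% were at least 2-fold higher in members in both libraries and 14% at least 2-fold lower, and the median log2 difference was −0.17 in CT and −0.16 in KO. Which direction held more genes depended on how low counts were treated: 19.9% were higher and 5.19% lower with 5 counts added to each sum in place of 0.5, and 21.4% and 5.86% with members thinned to 1000 UMIs. Counts of higher and lower genes in each list below are to be read beside these shares of all genes. The proton pump and its partners stood out among the lists. Of 23 acid secretion genes other than the rule gene, 18 were higher and 1 lower, with a median log2 difference of 1.47 in CT and 1.69 in KO, and the whole list summed to 13986 and 14202 CPM against 4478 and 4058 CPM. Atp6v1b2, a subunit of the pump's catalytic head, was at 757 and 683 CPM against 112 and 116. Slc4a2, the bicarbonate-chloride exchanger, was at 120.0 and 144 CPM against 27.4 and 28.4, and the chloride-proton exchanger Clcn7 at 72.3 and 83.9 against 22.2 and 22.3. Tcirg1, the a3 subunit that osteoclasts use, was at 290.4 and 312 CPM against 93.5 and 86.7. Car2, the carbonic anhydrase that supplies protons, was at 32.8 and 63.4 CPM against 1.15 and 1.57. The lower gene was Atp6v0a1, another isoform of the a subunit, with 5 UMIs in each library's members and 60.2 and 47.1 CPM in the others. Snx10, a sorting nexin needed for the ruffled border, was at 419 and 504 CPM against 78.3 and 84.9.

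**Figure D4:**
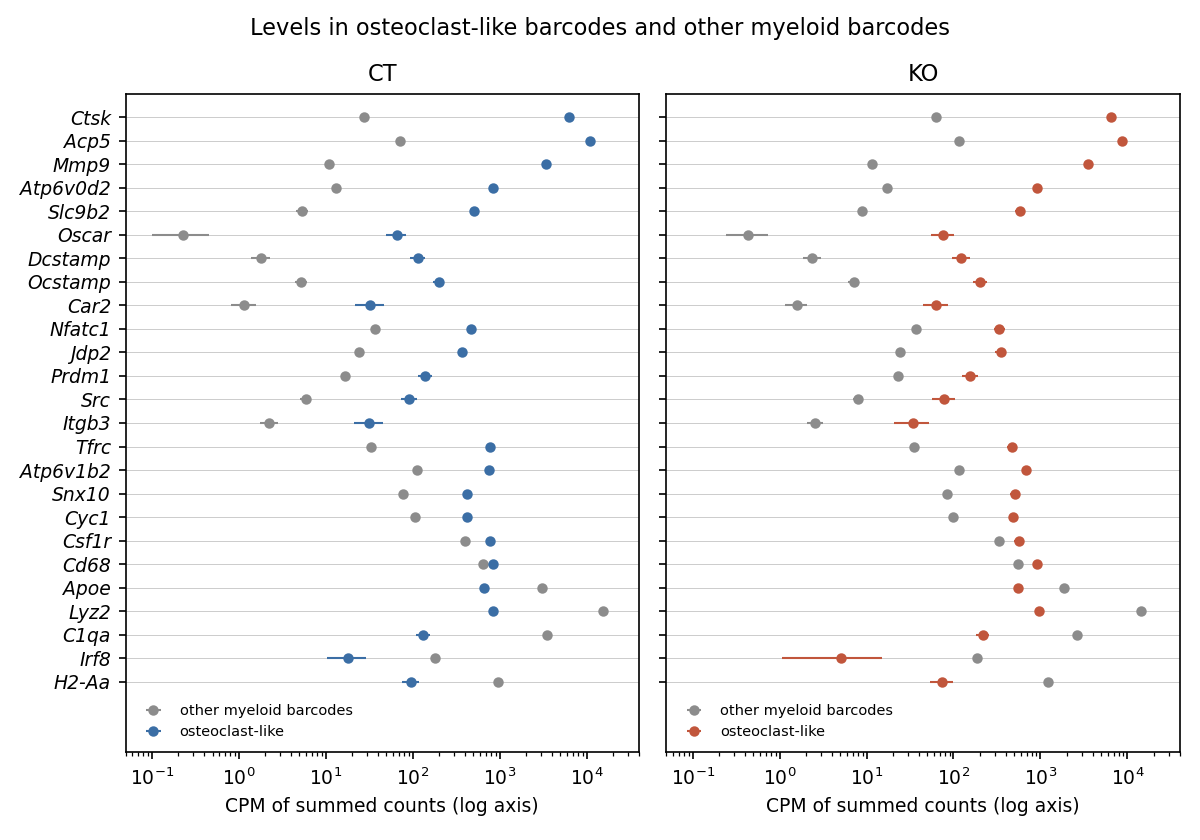
The horizontal axis is the level in CPM of summed counts (log axis) and each row is 1 of 25 genes, in CT on the left and KO on the right, with gray points for other myeloid barcodes, colored points for osteoclast-like barcodes and bars for the exact 95% Poisson interval of counting error. Osteoclast genes such as Oscar (65.5 against 0.230 CPM in CT) lie to the right of the gray points, and Lyz2, C1qa, Irf8 and H2-Aa lie to the left in both libraries.

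Of the receptors and adaptors outside the rule, 2 of 7 were higher and 1 lower, where 5.15% of all genes were higher and 14% lower. In lists this short a single gene says nothing about the list. Oscar, the collagen-binding costimulatory receptor, was at 65.5 CPM in CT and 75.4 CPM in KO members against 0.230 and 0.439 CPM. It was found in 21 of 48 and 14 of 56 cells, counts that were not matched for depth. Tnfrsf11a, the RANK receptor, was at 113 and 115 CPM against 54.8 and 46.3. Trem2 was the lower gene, at 189 and 106 CPM against 445 and 367. The calcitonin receptor Calcr, a marker of mature osteoclasts, had 5 UMIs in CT and 1 in KO. Of 7 fusion genes, Ocstamp (200 and 200.4 CPM against 5.21 and 7.09) and Dcstamp (115 and 122 against 1.81 and 2.38) were higher, and the tetraspanin Cd81 and the protease Adam8 were lower. Siglec15, a receptor of late osteoclast precursors, had 5 UMIs in each library.

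Of 14 transcription factors, 5 were higher and 1 lower, where 5.15% of all genes were higher and 14% lower. Nfatc1 was at 469 and 337 CPM against 37.0 and 37.2, and was found in 47 of 48 and 34 of 56 cells. Among deep members it was found in 42 of 43 CT and 19 of 19 KO cells, and among shallow KO members in 15 of 37. Jdp2, an AP-1 family factor, was at 374 and 349 CPM against 24.3 and 24.6. Prdm1 (Blimp1), which represses inhibitors of osteoclast formation, was at 140.1 and 156 CPM against 16.5 and 23.2. Ppargc1b, a coactivator of mitochondrial genes, was at 79.1 and 53.1 CPM against 5.67 and 6.37, and Mitf was the fifth. Fos, which osteoclast formation needs, was the lower one, at 221 and 254 CPM against 701 and 945. Of 6 repressors of osteoclast formation 5 were lower and 0 higher. Irf8 was at 18.1 and 5.14 CPM against 180.0 and 187, and Id2 at 28.2 and 54.8 against 155 and 188. Of 11 attachment genes 3 were higher, the integrin subunits Itgb3 (31.6 and 34.3 CPM against 2.24 and 2.57) and Itgav (214 and 218 against 83.3 and 84.7) and the kinase Src (91.5 and 77.1 against 5.90 and 8.00).

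Ranked over all genes, with the rule genes left out, the 12 farthest above the other myeloid barcodes in both libraries were Mt3, Oscar, Rufy4, Coq8a, Slc9b2, Dcstamp, Kbtbd11, Chchd10, Plxna4, Scin, Car2 and Ocstamp. Rufy4, a positive regulator of autophagy, was at 48.6 and 83.9 CPM against 0.230 and 0.753, a log2 difference of 7.65 in CT and 6.79 in KO. Coq8a, of coenzyme Q synthesis, was at 160.5 and 135 CPM against 1.78 and 1.47. Chchd10, a mitochondrial protein, was at 686 and 689 CPM against 18.4 and 20.2, and was found in 47 of 48 CT and 47 of 56 KO cells, where Slc9b2 was found in 47 and 43. Kbtbd11 was at 268 and 247 CPM against 5.87 and 6.24, and the actin-severing protein Scin at 40.7 and 49.7 against 1.38 and 1.60. The metallothionein Mt3 was at 207 and 149 CPM against 0.115 and 0.376, but 53.0% of its CT UMIs came from 1 barcode.

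The 12 genes farthest below were Lyz1, Ccl12, Plac8, Il7r, Acod1, Slfn1, Cd36, Cdc42ep3, Inhba, Nxpe5, Ticam2 and Mcpt4. Ccl12, a monocyte chemoattractant, had 0 UMIs in CT members, which is at least 101-fold lower than the 343 CPM of the others (a bound from 3 counts over the group), and 3 UMIs in KO against 264 CPM. Plac8 had 5 and 2 UMIs against 259 and 263 CPM. Lyz1 had 0 UMIs in both, at least 16.6-fold and 10.9-fold lower, although it is a near copy of Lyz2 and reads could have been shared between them. The scavenger receptor Cd36 had 1 and 0 UMIs against 49.2 and 56.8 CPM.

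Mitochondrial energy genes were mostly higher as well. Of 20 oxidative phosphorylation genes 18 were higher and 0 lower, with a median log2 difference of 1.25 in CT and 1.47 in KO and a sum of 14548 and 15079 CPM against 6218 and 5711. Cyc1 of complex III was at 418 and 485 CPM against 106 and 99.5. Ndufa4 was at 903 and 923 CPM against 282 and 222, and the brain-type creatine kinase Ckb at 485 and 552 against 161 and 122. Of 14 glycolysis and hypoxia genes 0 were higher and 7 lower, among them the glucose transporter Slc2a1 (28.2 and 51.4 CPM against 151 and 176). Aldoa, outside those 7, was at 1915 and 2013 CPM against 1364 and 1401.

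Lysosome genes were split. Of 18, 2 were higher and 9 lower, where 5.15% of all genes were higher and 14% lower. The higher ones were the sterol carrier Npc2 (2024 and 1850.0 CPM against 900.5 and 885) and the hexosaminidase subunit Hexa (620.3 and 726 against 288 and 240.0). Cathepsin B (Ctsb) was at 668 and 605 CPM against 2270.4 and 1922, and cathepsin C (Ctsc) at 61.0 and 87.4 against 983 and 979. Of 13 lipid genes, lipoprotein lipase (Lpl) was higher, at 289 and 228 CPM against 28.7 and 31.5, and 8 were lower, among them Apoe (664 and 555 against 3059 and 1880.5). Of 8 iron genes, the transferrin receptor Tfrc was higher, at 767 and 468 CPM against 33.6 and 35.5, and 3 were lower, including the heme oxygenase Hmox1 (20.3 and 41.1 against 297 and 347). Of 11 other metalloproteinases and inhibitors Mmp14, the membrane-type collagenase, was higher in both libraries (397 and 415 CPM against 179 and 169) and 4 were lower.

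Most genes of the immune lists were lower in both libraries. All 7 MHC class II genes were at least 2-fold lower, with H2-Aa at 94.9 and 73.7 CPM against 967 and 1207. All 7 M1-like and all 7 M2-like genes that were measured were lower as well, with Il1b at 29.4 and 10.3 CPM against 519 and 599 and the mannose receptor Mrc1 at 58.8 and 36.0 against 582 and 422. Of 11 interferon-stimulated genes 9 were lower, and of 15 chemokines 13. The chemokine Ccl9 was an exception and held the most UMIs of the list in members, at 772 and 733 CPM against 619 and 667. Of 12 angiogenic and growth factors 5 were higher, among them Pdgfa (163 and 147 CPM against 76.8 and 67.3), the semaphorin Sema4d (96.0 and 89.1 against 26.7 and 27.2), Vegfb (57.6 and 61.7 against 27.6 and 29.4) and Hbegf (29.4 and 56.5 against 10.5 and 16.1). Vegfa (38.4 and 25.7 against 78.9 and 126) and Thbs1 (27.1 and 17.1 against 363 and 588) were the 2 lower ones. Pdgfb, the ligand that recruits pericytes, was at 172 and 180.0 CPM against 159 and 150.

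Members held no UMI of RANKL (Tnfsf11) or of its decoy Tnfrsf11b, with a floor of 3.39 CPM in CT and 5.14 CPM in KO (3 counts). In barcodes gated as fibroblasts by collagen and Dcn RNA (144 in CT and 159 in KO) Tnfsf11 was at 12.8 and 31.7 CPM and Tnfrsf11b at 26.2 and 17.5 CPM. Csf1 was at 16.9 and 6.85 CPM in members, 54.3 and 56.6 in barcodes with cancer-cell RNA, 83.2 and 105 in fibroblasts and 158 and 150 in granulocytes. Il34, the other ligand of Csf1r, was highest among these gates in pericytes (gated by Rgs5, Notch3 and Higd1b), at 73.3 and 95.4 CPM. Gucy1b1, the gene deleted in KO, had 0 UMIs in members of either library. In the pericyte barcodes it had 60 UMIs (113 CPM, 26 of 39 barcodes) in CT and 14 UMIs (46.1 CPM, 8 of 29 barcodes) in KO, and since the deposited counts do not show whether its 3′ reads lie in the deleted part, this checks nothing about the deletion. Cspg4, the gene of the Cre promoter, had 38 UMIs in CT and 4 in KO members (42.9 and 6.85 CPM, log2 ratio −2.50, −4.60 to −1.17), against 43.9 and 24.0 CPM in the other myeloid barcodes. In the pericyte barcodes it was at 158 CPM in CT and 88.8 CPM in KO. The study describes the Cre line, which the CT genotype lacks, as a knock-in at Cspg4. What that insertion does to the Cspg4 count was not tested.

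Markers of most other cell types were low in the osteoclast-like cells. Of 6 T-cell markers 2 UMIs were found in CT and 0 in KO, all of Cd3d, Cd3e and Cd3g at 0. Natural killer, B-cell and osteoblast markers had 0 UMIs in both. Dendritic-cell markers summed to 9.04 and 5.14 CPM with Xcr1, Clec9a, Ccr7 and Cd209a at 0, and the 6 monocyte markers to 96.0 and 56.5 CPM against 1022 and 1084, all 6 lower. Cancer-cell genes, which the rule limited, summed to 111 and 90.8 CPM against 135 and 143. Endothelial markers summed to 13.6 and 1.71 CPM, and pericyte markers to 46.3 and 10.3 CPM, most of it Cspg4. Fibroblast markers summed to 2503 CPM in CT and 226 CPM in KO members, against 718 and 1006 CPM, with the most UMIs from Col3a1. The CT excess came from 1 barcode, the deepest of the library's members (63374 UMIs, 29776 CPM of collagen RNA), which also lay nearest to the summed limit at 4229 CPM. It held 99.4% of the CT members' Col1a1 and 93.5% of their Col3a1.

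Barcodes that missed the rule showed where its edge lay. In 44 CT and 83 KO barcodes the summed level reached the limit but Mmp9 or Ctsk was missing, and these held Slc9b2 at 195 and 335 CPM and Ocstamp at 37.0 and 46.0 CPM, between members and the rest, with Lyz2 at 5797 and 4916 CPM. Where both genes were found but the sum stayed below the limit (14 and 26 barcodes), Slc9b2 was at 3.16 and 6.02 CPM and Lyz2 at 9817 and 13957. Ctsk without Mmp9 (183 and 317 barcodes) went with 40.5 and 64.1 CPM of Slc9b2, and Mmp9 without Ctsk (147 and 199) with 2.91 and 4.84. Both of these groups share barcodes with the 44 and 83 that reached the limit, and Slc9b2 was not measured apart from them. A myeloid group with Gpnmb and Mmp12 found and at 1000 CPM together (50 and 57 barcodes) had Slc9b2 at 4.10 CPM in CT and 0 in KO, and Mmp12 at 3136 and 3643 CPM, where members had 21.5 and 8.56 CPM. Gpnmb itself, which osteoclasts in bone also express, had 4 UMIs in the members of each library. A group high in MHC class II (704 and 1141 barcodes) had Slc9b2 at 1.50 and 1.79 CPM.

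The cells also lay together when the rule's genes were left out. Barcodes were thinned to 2000 UMIs and their 15 nearest neighbors found over 20 components of 2000 variable genes, which kept 48 members in each library. Of the neighbors of a CT member 64.0% on average were members, where members were 1.49% of barcodes, and of the neighbors of other myeloid barcodes 0.390% were. In KO the values were 51.1%, 1.46% and 0.688%. Deep KO members had 66.7% and shallow ones 40.9%. In 37 of 48 CT and 24 of 48 KO members at least 50% of the neighbors were members, and 3 and 1 had none. The genes that define members are not independent of the rule, so this describes how alike the barcodes were and tests nothing.

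In pooled counts the osteoclast-like cells of KO and CT were close to each other for most genes. The 19 deep KO members held 462404 of the 583784 UMIs of all KO members. Pooled KO levels therefore describe mostly these cells and less the 37 shallow ones. Of 3514 genes with at least 50 UMIs in members, 0.598% were at least 2-fold higher in KO and 2.05% at least 2-fold lower, and the median log2 ratio was −0.01 (quartiles −0.22 and 0.19). More genes were higher than lower under other settings, at 3.19% and 1.86% with barcodes thinned to 2000 UMIs, 2.86% and 1.07% with members thinned to 1000 UMIs, 3.34% and 1.81% with 0 UMIs of the cancer-cell genes required, and 1.04% and 0.806% without the 5% deepest members. With the mean of barcode CPM, which weighs each barcode alike, 2.68% were higher and 4.87% lower. The rule genes chose the barcodes, so their ratios only describe the cells chosen and support no statement on KO against CT. Ctsk (log2 ratio 0.05, −0.01 to 0.11), Mmp9 (0.05) and Atp6v0d2 (0.10, −0.07 to 0.26) had intervals around 0, and Acp5 was at −0.34 (−0.39 to −0.30). Slc9b2 had a log2 ratio of 0.18 (−0.03 to 0.39) and Ocstamp 0.01 (−0.35 to 0.35). Of 20 acid secretion genes and 20 oxidative phosphorylation genes none passed 2-fold, and the medians were 0.10 and 0.04. Of 6 chemokines 3 were at least 2-fold lower in KO and 0 higher, against 2.05% of all genes lower. Their median was −0.62, −0.83 among deep members and 0.01 in the other myeloid barcodes. The whole chemokine list summed to 1205 CPM in deep CT and 923 CPM in deep KO members. In the 5 shallow CT members it summed to 9388 CPM, against 1689 CPM in shallow KO members, so these few CT barcodes weigh on the pooled ratio. Of 5 other metalloproteinases and inhibitors 3 were lower and 0 higher (median −1.70), with Mmp2 and Timp3 carried by the collagen-rich CT barcode. Below 2-fold, Nfatc1 was lower in KO (469 against 337 CPM, log2 ratio −0.47, −0.73 to −0.23), and among deep members alone the ratio was −0.21. Its median per deep cell was 438 CPM in CT and 364 CPM in KO. Tfrc was lower (−0.71, −0.92 to −0.51, and −0.54 among deep members), as were Csf1r (−0.48) and Trem2 (−0.82, −1.27 to −0.40). The median of Tfrc per deep cell was 423 CPM in CT and 373 CPM in KO. The 5 highest deep cells held 41.9% of its deep UMIs in CT and 67.8% in KO. Osteopontin (Spp1) was higher in KO, at 701 against 434 CPM (0.69, 0.49 to 0.90), and the fatty acid binding protein Fabp5 at 296 against 165 CPM (0.84, 0.52 to 1.17). For Csf1r, Trem2, Spp1 and Fabp5 no value among deep members is given, so depth is not set aside for them. The 80 osteoclast and oxidative phosphorylation genes of 50 UMIs or more held the 4 osteoclast genes of the rule and its myeloid genes Tyrobp and Fcer1g. Of the 80, the interval lay above 0 for 7 and below 0 for 12, Acp5 among these 12. Over the 3514 genes it lay above 0 for 5.52% and below 0 for 7.66%. Since the tally holds genes that chose the barcodes, nothing is concluded from it. Of the 80, 2 passed 2-fold, the actin regulator Cttn (20.3 in CT and 56.5 CPM in KO, 1.46, 0.60 to 2.39) and the transcription factor Myc (23.7 and 66.8 CPM, 1.48, 0.69 to 2.33).

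**Figure D5:**
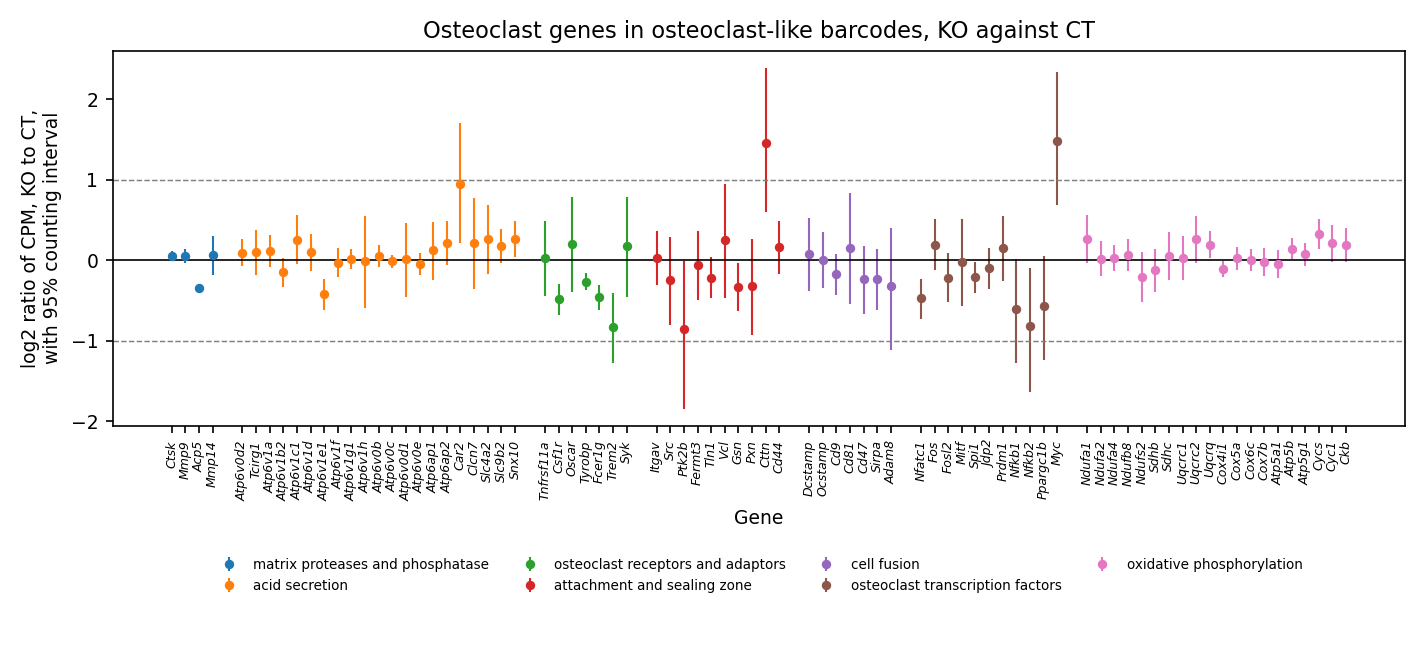
Each point is the log2 ratio of KO to CT in osteoclast-like barcodes for 1 osteoclast or oxidative phosphorylation gene of at least 50 UMIs, and the bars are exact 95% intervals of counting error, grouped and colored by role, with dashed lines at 2-fold. Of the 80 genes, 2 lie past 2-fold, Cttn and Myc, and the intervals of 7 lie above 0 and of 12 below. The 80 include genes that the rule used, with Acp5 among the 12.

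The 12 genes whose intervals lay farthest above 0 in KO began with Gm42418, AY036118 and Lars2. Gm42418, a gene model that overlaps ribosomal RNA sequence, was at 7697 CPM in CT and 22414 CPM in KO members (log2 ratio 1.54), and it was also higher in the other myeloid barcodes of KO (1.23). AY036118 (1.51 in members and 1.06 in the others) and the mitochondrial leucyl-tRNA synthetase Lars2 (1.55 and 1.14) did the same, so these 3 genes differed in the same direction in the rest of the myeloid barcodes. The apoptosis regulator Cflar was at 36.2 and 106 CPM (1.54) and the initiation factor subunit Eif2s2 at 415 and 731 CPM (0.82, 0.61 to 1.02). Wdfy1 (1.45), Rin3 (1.54) and Galk1 (1.39) followed, with Cttn and Myc. The metallothionein Mt2 (44.1 and 113 CPM, 1.35) drew 48.5% of its KO UMIs from 1 barcode. Srgn (serglycin) was higher over all members (1.02) and was −0.47 (−1.34 to 0.30) among the deep ones. Lyz2 and C1qa were also higher in KO over all members (0.20 and 0.71), and among deep members they were −2.68 and −1.09. These deep values rest on a few CT cells, since the 5 highest of 43 held 89.7% of the Lyz2 and 86.2% of the C1qa UMIs. The median of Lyz2 per deep cell was 102 CPM in CT and 101 CPM in KO.

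The 12 genes farthest below 0 were matrix and stromal genes, Col1a1, Col1a2, Saa3, Eln, Mmp2, Sparc, Postn, Tnc, Bgn, Timp3, Fbln2 and Mgp, and 94.5% to 100% of their CT UMIs came from the collagen-rich barcode. Without it, of 3354 genes 21 were at least 2-fold higher in KO and 43 at least 2-fold lower, an alternative chosen after the data were seen. The gene whose interval then lay farthest below 0 was platelet factor 4 (Pf4), at 404 CPM in CT and 39.4 CPM in KO (−3.33, −4.04 to −2.75). For Pf4, 53.0% of CT UMIs came from 1 barcode. Next by interval were Prc1 (81.5 and 5.14 CPM, −3.78, −6.30 to −2.38), Nusap1 (59.6 and 5.14 CPM, −3.33) and Marcks. Marcks, a membrane-linked substrate of protein kinase C, was at 73.0 and 8.56 CPM (−2.97), with 11.7% of CT UMIs from 1 barcode. The interferon-inducible Ifi27l2a was at 285 and 113 CPM (−1.33). The others were Arl6ip1, Kif2a, Cenpf, Tpx2, Ube2c, Cenpa and Top2a (145 and 56.5 CPM, −1.34). A single barcode held 40.8% of the CT UMIs of Nusap1, 40.3% of Prc1, 38.4% of Cenpf, 35.8% of Ube2c, 33.3% of Tpx2, 31.1% of Top2a and 25.8% of Cenpa. Of the 12 proliferation genes fixed as a list, 6 had enough UMIs. Of these, 2 were at least 2-fold lower in KO and 0 higher, where 2.05% of all genes were lower and 0.598% higher. Their median was −0.82, and the median in the other myeloid barcodes was −0.46. Among deep members the median was −1.76, and the list summed to 674 CPM in CT and 227 CPM in KO. Among shallow members it summed to 172 CPM in CT and 1104 CPM in KO. Taken as the mean of barcode CPM, the list's median in members was 0.53, so its direction rests on how barcodes were weighted. Top2a was found in 11 of 48 CT and 19 of 56 KO cells, so more KO barcodes carried it while its pooled level was higher in CT. As the mean of barcode CPM its log2 ratio was 0.35 and that of Mki67 was 0.31, against −1.23 and −1.30 from the pooled counts of all members.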

How the data were processed

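The authors deposited filtered gene-by-barcode matrices of raw UMI counts, made with Cell Ranger 6.1.1 on mm10 (3′ single-cell libraries, 1 per condition, 3 tumors pooled). The counts were used as deposited, over 32285 genes, and 0 columns were left out. The members and the gene lists were chosen with earlier results of these data known. Counts of members were summed per library and divided by their total UMIs (CPM); no count model or test was run, since each condition had 1 library. Ratios added 0.5 counts to each sum. Counts of genes past 2-fold took genes of 50 UMIs or more, and Cspg4, with fewer in members, is given by its own interval.

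Genes could be named from the fixed lists (examples are given, not every gene), with Gucy1b1, the 12 genes each way whose KO to CT interval lay farthest from 0, and the 12 each way with the largest smaller ratio of members to other myeloid barcodes in the 2 libraries, rule genes left out. The 12 lowest without the collagen-rich barcode were named after their values were seen. Members of 10000 UMIs or more are called deep, a limit chosen after the data were seen. Other cells were gated among barcodes low in cancer-cell RNA: fibroblasts by collagen and Dcn RNA at 5000 CPM, pericytes by Rgs5, Notch3 and Higd1b at 1000 CPM, T cells by 2 UMIs of Cd3d, Cd3e and Cd3g, granulocytes by S100a8 and S100a9 at 5000 CPM, and the MHC class II group among myeloid barcodes at 5000 CPM of those genes. Doublets were not removed; Scrublet marked 564 of 12281 barcodes in CT (4.59%), 1 of them a member, and 0 of 21082 in KO, where its limit did not work. Software was Python 3.11.15, numpy 2.4.6, scipy 1.17.1, pandas 2.3.3, scanpy 1.11.5, scikit-learn 1.9.0 and matplotlib 3.10.9, and the scripts were tested on simulated data. Promoters came from RefSeq, for 9 of 16 genes looked up. Values of 2 genes of the fixed lists are not reported here.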

Additional observations from a re-analysis of the deposited data

Results flagged for a closer look

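The cancer-cell step left out barcodes that met the Mmp9, Ctsk and summed-level steps. In KO these were 174 of the quality-filtered barcodes (0.825%) and in CT 21 (0.171%), a signal in barcodes that were counted above neither as osteoclast-like nor as other myeloid barcodes. They had a median of 7485 UMIs in KO and 56530.0 UMIs in CT, 1376 and 1060 CPM of cancer-cell RNA, and 5125 and 2982 CPM of the 4 rule genes together. Slc9b2 was found in 98 of the KO and 16 of the CT barcodes. What these barcodes hold was not tested.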

How the results depend on the processing

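No paired analysis was possible because each condition has a single library. The cause of the shifts given here was not tested. The log2 ratio of the shares, −0.06, was 0.24 with barcodes thinned to 2000 UMIs (CT share 1.31%, KO share 1.55%). It was 1.03 with 0 UMIs of the cancer-cell genes required (8 CT and 27 KO members, CT share 0.802%). Alternatives chosen after seeing the data gave −0.86 with a minimum of 10000 UMIs (CT share 2.79%), −1.03 without members at 1000 CPM of Lyz2 and C1q RNA (KO share 0.625%), and a CT share of 2.13% with a mitochondrial limit of 20%. The direction of the share therefore rests on how barcodes were filtered. The percentage of genes at least 2-fold higher in KO was 3.19 with barcodes thinned to 2000 UMIs, 3.34 with 0 cancer-cell UMIs, 2.68 as the mean of barcode CPM, 0.271 for genes of 100 UMIs or more, 2.86 with members thinned to 1000 UMIs and 1.04 without the 5% deepest. The percentage at least 2-fold lower was 4.87 as the mean of barcode CPM, 1.03 for genes of 100 UMIs or more, 1.22 with a pseudocount of 5, 1.07 with members thinned to 1000 UMIs, 0.806 without the 5% deepest, and 1.28 both without the collagen-rich barcode and without the 5% highest Scrublet scores, alternatives that were also chosen after seeing the data. Against other myeloid barcodes, genes higher in members were 19.9% and lower 5.19% with a pseudocount of 5, and 21.4% and 5.86% with members thinned to 1000 UMIs. As the mean of barcode CPM the log2 ratio of KO to CT turned positive for Timp1 (0.37), Mki67 (0.31), Top2a (0.35), Dcn (0.89) and Lum (0.58). Col3a1 turned to 0.71 without the 5% deepest members and to 0.51 without the collagen-rich barcode or without the highest Scrublet scores, and Srgn to −0.47 with a minimum of 10000 UMIs. Over 193 genes and all settings, 2178 ratios stayed within their counting error, 318 moved, and 9 ratios of genes past 2-fold turned sign. The sign also turned in 138 of the ratios that moved, Lyz2 and C1qa among them, and in 169 of those within counting error. Of the list medians 16 moved and 232 did not, though the sign also turned in 43 of those 232. Among those that moved, the sign turned for proliferation (−0.82 to 0.53), MHC class II (−0.09 to 0.56) and the receptors (0.03 to −0.83) as the mean of barcode CPM, for MHC class II without the 5% deepest members (0.44), and for the macrophage markers (0.17 to −1.33) with a minimum of 10000 UMIs. An alternative with Scrublet's own limit was run for the CT share alone.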

Other observations

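The limit on mitochondrial RNA left out barcodes that met all other steps. There were 35 in CT, with a median of 15.4% mitochondrial RNA, 12230 UMIs and 37462 CPM of the 4 rule genes together, and Slc9b2 was found in 33 of them. In KO there were 31, with medians of 14.4%, 12806 UMIs and 14582 CPM, and Slc9b2 was found in 29. Among members 12 of 48 in CT and 13 of 56 in KO lay at 8% or above, close under the limit of 10%.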
